A study of Mus musculus with 17 samples.

Results

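A set of 10 genes of fast-twitch skeletal muscle was read out in distant MC38 tumors, to see how much muscle RNA each tumor held and whether it differed after cryoablation of the tumor on the other side. The 10 genes, Acta1, Ckm, Myh1, Myh4, Mylpf, Tnnt3, Tnni2, Tnnc2, Actn3 and Pvalb, were chosen by name from the 21931 genes of the deposited table, and each had 1 row. Muscle RNA was uneven between tumors. In 6 of 17 tumors Acta1 and Myh4, genes of the contractile apparatus, stood above the other 11, and these 6 were 3 control and 3 cryoablation tumors. None of the 9 genes with reads passed the test of a difference between the groups over all tumors.

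MC38 is a mouse colon cancer cell line. Wild-type C57BL/6J mice aged 6 to 8 weeks carried MC38 tumors under the skin of both sides, whichever group they were in. In the cryoablation group, the tumor of 1 side was frozen with a cryoprobe on day 7, and the tumor of the other side, which was not frozen, was taken 5 days later. The labels give 9 control and 8 cryoablation tumors, all at day 5, and do not say which mouse each tumor came from or what was done to the control mice in place of freezing, so p values measure the spread between these samples. The study's text gives the larger number to the other group. The labels were used here, and an exchange of the groups would turn the sign of every difference. The study reports hemoglobin transcripts as lower in control than in cryoablation tumors. With the labels, log2 fold changes of cryoablation over control were 1.45 for Hbb-bt, 1.54 for Hbb-bs and 1.75 for Hba-a1. For these transcripts the direction under the labels is thus the one the study gives. S100a8 and S100a9, which the study names beside them, are not reported here. Whole tumor pieces were sequenced, and in such bulk samples fewer cells of a type and less RNA per cell cannot be told apart. Total counts ranged from 14154687 to 17898672 in control tumors and from 13524899 to 16847050 in cryoablation tumors. A count of 0 allows a level of up to 3 counts, which is 0.168 to 0.222 CPM (counts scaled to a common library total) in these libraries. These limits, and the intervals given for shares, cover counting error only. Of 7 colon epithelium markers, Cdh1 (E-cadherin, 55 to 427 counts), Krt19 (6 to 949) and Epcam (8 to 127) had reads in every tumor. Krt8, a keratin of simple epithelia, reached 609 counts and had 0 in 3 tumors, Vil1 had 0 to 11 counts, and Cdx2, the intestinal transcription factor, had none in any tumor.

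A skeletal muscle fibre shortens when myosin heavy chains pull on actin filaments within the sarcomere. Calcium released into the fibre binds troponin, which frees the actin for myosin, and creatine kinase and stored glycogen supply the energy. Fast fibres differ from slow fibres in the forms of myosin, troponin and light chain they use. In mice a thin sheet of such muscle, the panniculus carnosus, lies under the skin, where these tumors were implanted; whether it was taken with a tumor was not tested.

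Actin filaments and their anchor were represented by Acta1, skeletal muscle alpha-actin (ENSMUSG00000031972, chromosome 8), and Actn3, the alpha-actinin of fast fibres that ties actin to the Z-disc (ENSMUSG00000006457, chromosome 19). Acta1 had between 0 and 730 counts in control tumors, with a median of 6, and between 1 and 451 in cryoablation tumors, with a median of 12. It had 675 counts in control 3, 730 in control 6, 107 in control 8, 451 in cryoablation 3, 97 in cryoablation 7 and 374 in cryoablation 8. In the other 11 tumors Acta1 had at most 14 counts. The high tumors thus came from both groups, and the groups overlapped over nearly their whole ranges. After TMM normalization, which adjusts for RNA composition, Acta1 was 9.46 ± 16.96 CPM in the control group (SD, n = 9) and 6.85 ± 10.4 CPM in the cryoablation group (SD, n = 8). Actn3 followed the same tumors at lower counts, with 0 to 146 in control tumors (median 8) and 0 to 79 in cryoablation tumors (median 6.5), and its highest count was in control 6.

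**Figure D1:**
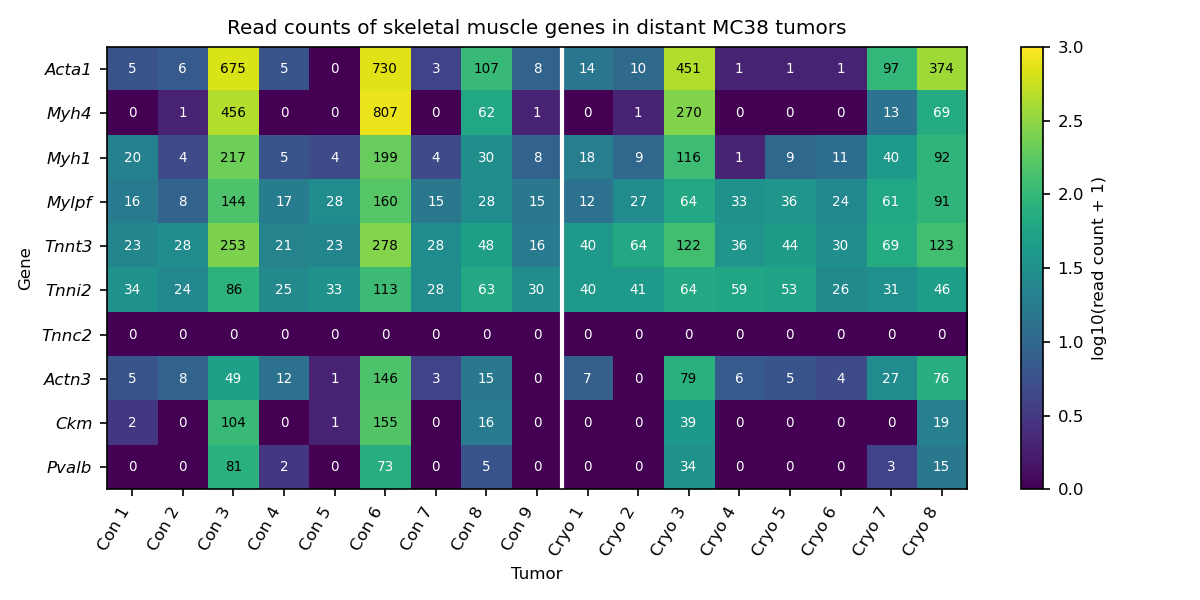
Read counts of the 10 muscle genes in each of the 17 tumors, with genes as rows, tumors as columns and color on a log10(count + 1) scale. Acta1 ranged from 97 to 730 counts in control 3, 6 and 8 and cryoablation 3, 7 and 8, against 0 to 14 in the other 11 tumors, and Tnnc2 had no reads.

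Myosin heavy chains, the motor proteins, were represented by Myh4 (type IIb, ENSMUSG00000057003) and Myh1 (type IIx, ENSMUSG00000056328), which lie side by side on chromosome 11. Myh4 had 456 counts in control 3, 807 in control 6, 62 in control 8, 270 in cryoablation 3, 13 in cryoablation 7 and 69 in cryoablation 8. In the other 11 tumors it had 0 or 1, and its median was 1 in control and 0.5 in cryoablation tumors. Myh4 was thus close to a present or absent signal, and it separated the same 6 tumors as Acta1. Myh1 had 4 to 217 counts in control tumors (median 8) and 1 to 116 in cryoablation tumors (median 14.5), and in the 11 tumors without Myh4 it still had 1 to 20 counts. The myosin heavy chains are close copies of each other. Of the 50-base windows of the Myh1 transcript, 32.1% also occurred in transcripts of another gene, most often Myh2, and of those of Myh4 18.9%, most often Myh1, so that how reads were split between them is uncertain.

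The promoters of Acta1, Ckm and the myosin pair are shown because these 4 genes had 0 to 20 counts in the 11 low tumors and up to 155 to 807 in the others. Each is the 250 bases before the transcription start in RefSeq on GRCm38.p6, 5′ to 3′ on the gene's strand. Capitals mark matches on either strand to TATAAA, to the serum response factor element known as the CArG box and to the MEF2 site, the last 2 searched by their usual degenerate forms; where a TATAAA match lies within a MEF2 match, the longer match is in capitals. The windows were Acta1 chr8:123894776-123895025 (minus strand), Ckm chr7:19410844-19411093 (plus strand), Myh1 chr11:67199852-67200101 (plus strand) and Myh4 chr11:67237562-67237811 (plus strand).
Acta1: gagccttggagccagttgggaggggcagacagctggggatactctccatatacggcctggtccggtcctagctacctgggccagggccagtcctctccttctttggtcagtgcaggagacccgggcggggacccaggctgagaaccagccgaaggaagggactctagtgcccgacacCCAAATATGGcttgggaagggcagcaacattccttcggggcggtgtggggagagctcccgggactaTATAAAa
Ckm: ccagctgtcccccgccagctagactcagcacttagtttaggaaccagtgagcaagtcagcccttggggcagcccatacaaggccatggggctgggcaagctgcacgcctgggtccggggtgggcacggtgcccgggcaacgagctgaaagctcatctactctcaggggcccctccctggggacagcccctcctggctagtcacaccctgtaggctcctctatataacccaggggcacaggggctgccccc
Myh1: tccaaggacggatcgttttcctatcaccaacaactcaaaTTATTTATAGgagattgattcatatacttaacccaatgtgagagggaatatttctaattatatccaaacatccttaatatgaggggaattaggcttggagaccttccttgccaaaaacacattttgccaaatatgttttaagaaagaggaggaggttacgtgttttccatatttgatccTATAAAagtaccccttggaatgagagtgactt
Myh4: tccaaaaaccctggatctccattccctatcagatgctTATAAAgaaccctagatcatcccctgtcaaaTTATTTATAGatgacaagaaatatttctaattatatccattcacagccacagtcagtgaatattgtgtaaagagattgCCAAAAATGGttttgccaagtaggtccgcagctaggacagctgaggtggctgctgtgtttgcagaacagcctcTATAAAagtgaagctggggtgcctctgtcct

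Positions count back from -1, the base before the start. A CArG box was found at -73 to -64 for Acta1 and at -104 to -95 for Myh4, and 1.47% of all 32851 promoter windows hold one. The same MEF2 match stood at -211 to -202 for Myh1 and at -182 to -173 for Myh4, against 2.92% of all windows. TATAAA, held by 12.4% of windows, lay at -32 to -27 for Myh1, at -213 to -208 and -31 to -26 for Myh4 and at -7 to -2 for Acta1, outside the MEF2 matches. The E-box CANNTG, bound by MyoD and its relatives, is held by 66.2% of all windows and was found 2 times each for Acta1 and Myh4, 1 time for Ckm and not for Myh1. Myh1 and Myh4 also shared a run of 20 bases, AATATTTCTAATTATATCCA. As long a run with Myh4 was shared by 2 of the other 32850 windows, that of Myh1 among them. These are matches of letters, and binding was not measured. RefSeq promoter windows were found for 7 of the 10 genes.

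The myosin makeup of the 6 high tumors differed between tumors. It was computed where Myh4, Myh1, Myh2 (type IIa) and Myh7 (slow type I) together had at least 30 counts, as shares of their summed FPKM, a level per gene length and per total count. Myh4 made up 68.8% in control 3, 78.3% in control 6 and 67.9% in control 8, and 67.5% in cryoablation 3. In cryoablation 8 Myh4 made up 38.6% and Myh1 48.7%, and in cryoablation 7 Myh4 made up 22.6% and Myh1 65.7%. As shares of counts, Myh4 was 77.1% in control 6 (95% Wilson interval 74.4 to 79.5%, 1047 reads), 36.7% in cryoablation 8 (30.1 to 43.8%, 188 reads) and 21.3% in cryoablation 7 (12.9 to 33.1%, 61 reads), so the intervals of the last 2 tumors lie below that of control 6. Myh2 ranged from 0.127% of the summed FPKM in control 3 to 12.3% in cryoablation 8, and Myh7 had 1 read in cryoablation 8 and none in the other 5. With 3 tumors in each group, no exact test of these shares can reach 0.05, and none was made.

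**Figure D2:**
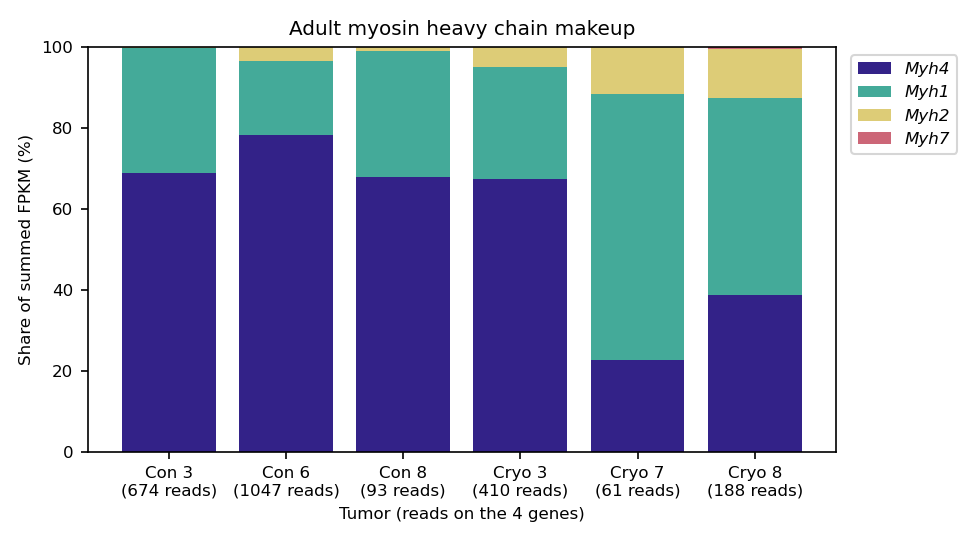
Share of each adult myosin heavy chain gene in the summed FPKM (percent, vertical axis) in the 6 tumors with at least 30 reads on the 4 genes, with the reads given under each bar. Myh4 was the largest share in control 3, 6 and 8 and cryoablation 3 (67.5 to 78.3%), and Myh1 in cryoablation 7 and 8 (65.7% and 48.7%).

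The fast light chain and the troponins formed a second pattern, with reads in all 17 tumors. Mylpf, the phosphorylatable light chain of fast myosin (ENSMUSG00000030672, chromosome 7), had 8 to 160 counts in control tumors (median 17) and 12 to 91 in cryoablation tumors (median 34.5). Tnnt3, the fast troponin T that attaches the complex to tropomyosin (ENSMUSG00000061723, chromosome 7), had 16 to 278 (median 28) and 30 to 123 (median 54). Tnni2, the fast troponin I that holds myosin off actin at rest (ENSMUSG00000031097, chromosome 7), had 24 to 113 (median 33) and 26 to 64 (median 43.5). These 3 genes had reads in the 8 tumors in which Myh4 had none, and in control 5, the 1 tumor in which Acta1 had none. In the 11 tumors low in Myh4, Tnni2 had 24 to 59 counts, Tnnt3 16 to 64 and Mylpf 8 to 36. In normalized CPM, Tnni2 was 5.11 in cryoablation 5 and 4.61 in cryoablation 4, where Acta1 had 1 read each, against 6.75 in control 6 and 4.36 in control 3. Those levels of Tnni2 lie within the range of the tumors rich in Acta1.

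Tnnc2, the fast troponin C that binds calcium (ENSMUSG00000017300, chromosome 2), had 0 counts in all 17 tumors, also where its partners Tnnt3 and Tnni2 were high. In the positions of the deposited table its 2807 bases overlap the opposite-strand gene Ube2c by 1662 bases, and Ube2c, a cell cycle gene, had 2105 to 4527 counts. Of the 50-base windows of the Tnnc2 transcript, 55.0% also occurred in Ube2c transcripts on 1 of the strands. How reads in overlapping genes were counted is not given in the sources used here, and the part of this overlap in the count of 0 was not tested. A level of Tnnc2 is therefore not given.

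Energy supply and calcium buffering were represented by Ckm, the creatine kinase of muscle (ENSMUSG00000030399, chromosome 7), and Pvalb, parvalbumin, a calcium buffer of fast fibres and of some neurons (ENSMUSG00000005716, chromosome 15). Ckm had 104 counts in control 3, 155 in control 6, 16 in control 8, 39 in cryoablation 3, 0 in cryoablation 7 and 19 in cryoablation 8, and at most 2 elsewhere. Pvalb had 81, 73, 5, 34, 3 and 15 counts in these 6 tumors, in the same order, and at most 2 elsewhere. Cryoablation 7 thus held 97 counts of Acta1 with no read of Ckm, where 3 counts correspond to at most 0.222 CPM in any tumor. Per length, the FPKM of Ckm over that of Acta1 was 0.0812 in control 3, 0.112 in control 6 and 0.0788 in control 8, and 0.0456 in cryoablation 3, 0 in cryoablation 7 and 0.0268 in cryoablation 8. The FPKM of Myh4 over that of Acta1 was 0.148 to 0.282 in the 3 control tumors and 0.153, 0.0342 and 0.0471 in cryoablation 3, 7 and 8. The FPKM of Myh1 over that of Acta1 stayed between 0.0595 and 0.0997 in all 6.

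In FPKM, Acta1 was the highest of the 10 genes in each of the 6 tumors, at 24.6 in control 3, 30.1 in control 6, 3.92 in control 8, 17.4 in cryoablation 3, 3.999 in cryoablation 7 and 14.6 in cryoablation 8. Tnnt3 or Mylpf came next in 5 of them, and Tnni2 in control 8. Summed over the 10 genes, reads took 0.0169% of the total count in control 6 (95% Wilson interval 0.0162 to 0.0175%), 0.0115% in control 3, 0.00735% in cryoablation 3 and 0.00543% in cryoablation 8. They took 0.00216% in cryoablation 7, 0.00210% in control 8 and as little as 0.000476% in control 7. The share was 0.00377 ± 0.00609% in the control group (SD, n = 9) and 0.00245 ± 0.00253% in the cryoablation group (SD, n = 8), and the medians were 0.000636% and 0.00111%.

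The spread of these genes between tumors was among the widest of the transcriptome. The SD of log2 CPM over the 17 tumors was 3.08 for Myh4, 2.93 for Acta1, 2.14 for Ckm, 1.87 for Pvalb, 1.81 for Myh1 and 1.80 for Actn3, on a scale with a prior count of 2. It was 1.14 for Mylpf, 1.14 for Tnnt3 and 0.66 for Tnni2. Set against genes with a mean of at least 10 counts, Myh4 stood at percentile 99.99 and Tnni2 at 85.1. After variance stabilization 7 of the 10 genes were among the 500 most variable genes, the set commonly used for principal component analysis, with Acta1 at rank 2 and Myh4 at rank 3.

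Levels were compared between groups with edgeR's quasi-likelihood test over all genes, and a gene was called when its log2 fold change passed 1 in either direction at an unadjusted p under 0.05, the threshold of the study. Of the 10 genes, 5 passed the filter on low counts (Acta1, Myh1, Mylpf, Tnnt3 and Tnni2), and 0 of these 5 were past the threshold, against 0.492% of the 13005 genes tested (64 genes). None of the 5 had an unadjusted p under 0.05, against 4.91% of all genes (639 genes), and 0 genes of 13005 had an adjusted p under 0.05 with edgeR, DESeq2 or limma voom. The log2 fold change of cryoablation over control was -0.45 for Acta1 (SE 1.22, edgeR adjusted p = 0.891) and -0.44 for Myh1 (SE 0.86, edgeR adjusted p = 0.850). It was 0.06 for Mylpf (SE 0.55), -0.05 for Tnnt3 (SE 0.56) and 0.14 for Tnni2 (SE 0.33), with edgeR adjusted p values of 0.974, 0.975 and 0.876. The median log2 fold change of all genes tested was -0.01. With an SE of 1.22, a difference of Acta1 had to lie well beyond that error on either side to pass the test. Smaller differences were not detectable with these tumors.

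The 4 genes with reads that did not pass the filter were taken from the same fit without the filter, in which 2.42% of 17819 genes were past the threshold (1.25% higher and 1.18% lower after cryoablation). None of the 9 genes with reads was among them, and none had an unadjusted p under 0.05, against 5.57% of all genes. The log2 fold change was -1.98 for Ckm (SE 1.26), -1.71 for Myh4 (SE 1.39), -1.34 for Pvalb (SE 1.197) and 0.00 for Actn3 (SE 0.78), with edgeR adjusted p values of 0.699, 0.715, 0.715 and 0.9997. When each tumor in turn was left out of this fit, Ckm (-3.24, SE 1.42, unadjusted p = 0.0353 with edgeR) and Myh4 (-3.44, SE 1.54, unadjusted p = 0.0386 with edgeR) were past the threshold without cryoablation 3, the cryoablation tumor richest in both, and both had an edgeR adjusted p of 0.503. These were the only calls among 153 such fits of the 9 genes. In two-sided exact permutation tests of log2 CPM over the 17 tumors, p ranged from 0.312 for Tnnt3 to 0.929 for Acta1 over the 9 genes, and the smallest p such a test can give here is 4.11e-05. The difference of mean log2 CPM had the opposite sign to the edgeR fold change for Acta1 (0.13), Myh1 (0.24) and Tnnt3 (0.57). The edgeR fold change of Acta1, Myh1 and Tnnt3 also turned positive without control 3 or without control 6, for Acta1 in the fit without the filter.

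**Figure D3:**
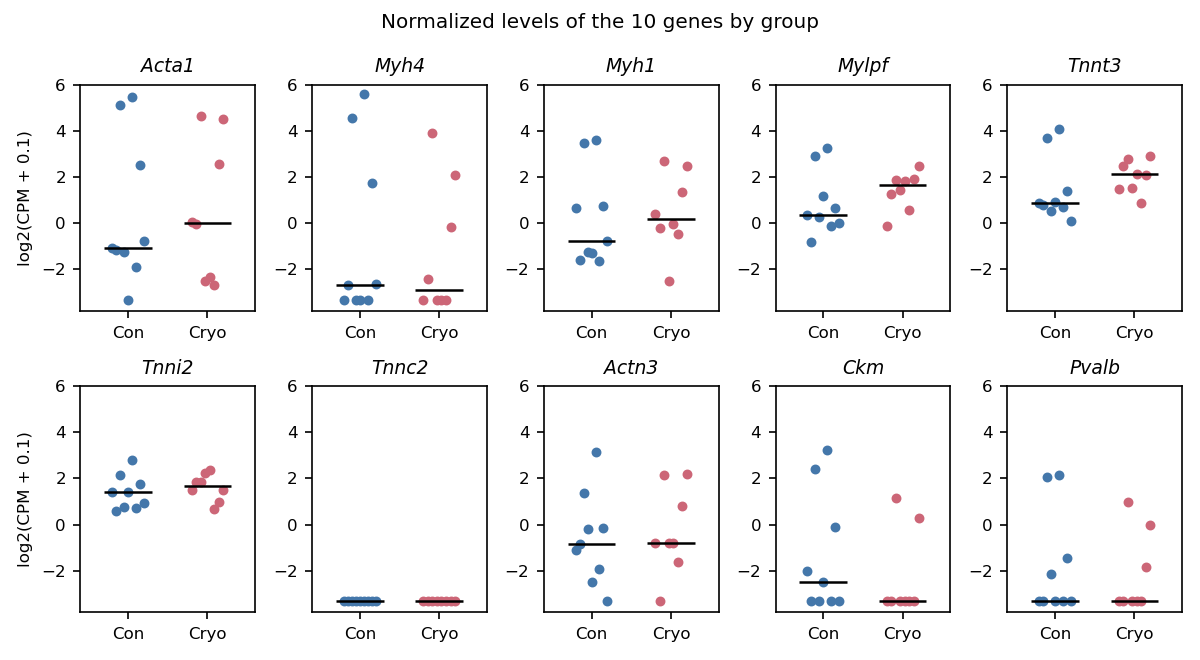
Levels of the 10 genes in the control (Con) and cryoablation (Cryo) groups as log2(TMM-normalized CPM + 0.1), 1 point per tumor, with the bar at the median of the plotted values. In both groups Acta1 and Myh4 fall into a few high tumors and many near the bottom, while Mylpf, Tnnt3 and Tnni2 lie above the bottom in all 17, and the groups overlap for every gene.

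The mean log2 CPM of the 9 genes with reads, used as a muscle score, was 0.08 ± 2.001 in the control group (SD, n = 9) and 0.11 ± 1.43 in the cryoablation group (SD, n = 8). The score was 3.70 in control 6, 3.08 in control 3, 2.44 in cryoablation 3, 2.06 in cryoablation 8, 0.82 in control 8 and 0.55 in cryoablation 7, and -0.61 or lower in the other 11. Control 6 was among the highest 2 tumors for all 9 genes and control 3 for 7 of 9. The difference between group means, cryoablation minus control, was 0.03, and it was -0.31 without cryoablation 3 and 0.48 without control 6. Leaving out a single library thus turned its sign.

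The 10 genes whose level followed the muscle score most closely were mostly other muscle genes. Among 13038 genes with a mean of at least 10 counts, the 10 with the highest Spearman rho over the 17 tumors were Des (0.892), Mybpc2 (0.843), Pygm (0.819), Mybpc1 (0.794), Myl1 (0.779), Ryr1 (0.703), Ptpn23 (0.703), Aatk (0.696), Atp2a1 (0.691) and Ttn (0.684). Des encodes desmin, the intermediate filament of muscle, Pygm the glycogen phosphorylase of muscle, Ryr1 its calcium release channel, Atp2a1 the calcium pump of fast fibres and Ttn titin, the spring of the sarcomere. Of the 10, 8 stood on the muscle lists, which held 36 of the 13038 genes, and the median rho of all 13038 genes was 0.00. A rho over 0.7 was reached by 7 genes, and 6 of them were on the muscle lists. The rest of the 36 followed the score less closely. Without control 6 and control 3 the rho of Des was 0.861 and that of Ttn 0.539. These values share the same 17 libraries and describe them.

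The other fast fibre genes, Myl1 (fast alkali light chain), Mybpc2 (fast myosin-binding protein C), Myoz1 and Myh2, had too few reads in most tumors, and 0 of 4 passed the filter. Myl1 had 127 counts in control 3, 189 in control 6, 71 in cryoablation 3 and 59 in cryoablation 8, and at most 8 in the 11 low tumors. The FPKM of Mybpc2 was between 0.0284 and 0.0466 of that of Acta1 in all 6 high tumors. This rests on few reads in some, with 7 counts of Mybpc2 in cryoablation 7 and 9 in control 8. In the fit without the filter, 0 of the 4 were past the threshold, and their median log2 fold change was -0.49, beside -0.02 for all genes.

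Calcium release and reuptake genes followed, with 0 of 5 tested genes of 15 past the threshold and a median log2 fold change of -0.11. Atp2a1 had 15 to 187 counts in the 6 high tumors and 1 to 8 in the others. Cacnb1, a calcium channel subunit with 35 to 90 counts, and Srl, sarcalumenin, with 19 to 116, were read in every tumor. Among scaffold genes 0 of 7 tested of 22 were past the threshold (median -0.27). In that list Flnc, filamin C, had 522 to 1698 counts and Des 41 to 438 in all tumors, while Ttn had 46 to 281 in the high tumors and 8 to 37 in the others.

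Slow fibre genes were mixed. The Spearman rho of their summed CPM, most of it Tnnc1 and Tnni1, with the muscle score was 0.12 over 17 tumors. It was 0.79 for the other fast fibre genes, 0.85 for the calcium genes, 0.55 for the scaffold genes and 0.32 for the excitation genes. Within the calcium list single genes differed, with a rho of 0.70 for Ryr1 and 0.69 for Atp2a1 but 0.14 for Cacnb1 and 0.375 for Srl. Tnnc1, the slow and cardiac troponin C, had 40 to 172 counts in all tumors, and Tnni1, the slow troponin I, had 41 to 130. Myh7, the slow myosin itself, had at most 3 counts in any tumor. Csrp3, a muscle LIM protein with 0 to 33 counts, had a rho of 0.56 with the score. None of the 3 tested slow fibre genes of 9 was past the threshold (median 0.59). In the fit without the filter 1 of 9 was, against 2.42% of all 17819 genes. That gene was Myl3, a slow and cardiac light chain with 1 to 5 counts in control and 2 to 13 in cryoablation tumors (log2 fold change 1.30, SE 0.42, unadjusted p = 0.00568 with edgeR). Energy supply genes, led by Eno3 (muscle enolase, 1048 to 2663 counts) and Pfkm (muscle phosphofructokinase, 610 to 1122), had 0 of 8 tested past the threshold and a median of 0.13. The rho of their summed CPM with the score was 0.00, and that sum is mostly Eno3 (rho -0.09) and Pfkm (rho 0.20). Single energy genes of fewer reads ranked with the score, with rho values of 0.82 for Pygm and 0.71 for Mb, myoglobin. Of the excitation genes 0 of 2 tested were past it, with a median of -0.04.

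Genes of muscle formation were few in reads. Myog, the myogenin that drives differentiation of myoblasts, had 20 counts in control 6, 15 in cryoablation 8, 7 in cryoablation 7 and 1 each in control 3 and cryoablation 3, and 0 in the other 12 tumors. Myh8, the perinatal myosin, had 9 counts in cryoablation 7, 7 in cryoablation 8, 3 in cryoablation 3, 2 in control 6 and 0 or 1 elsewhere. Myh3, the embryonic myosin, had 11 counts in control 6, 5 in cryoablation 8 and 4 each in cryoablation 7 and control 1. Most reads of Myog and Myh8 thus lay in the tumors high in Acta1 and Myh4. Control 1, with Myh3 reads, had no read of Myh4 but 20 counts of Myh1. The myogenic regulator Pax3, with a log2 fold change of 0.30, the satellite cell cadherin Cdh15, with 0.58, and the 1 embryonic gene tested, Myl4, with 0.91, were not past the threshold. In the fit without the filter 1 of 5 embryonic genes was, against 2.42% of all 17819 genes. That gene was Myh8 (log2 fold change 2.57, SE 0.95, unadjusted p = 0.0140 with edgeR, two-sided exact permutation p = 0.104), with reads in 6 tumors.

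Markers of other cells next to a subcutaneous tumor were set beside the muscle score over the 17 tumors. The rho with the score was -0.05 for the summed CPM of adipocyte markers, -0.28 for smooth muscle, -0.20 for epidermis, 0.23 for fibroblasts, 0.17 for endothelium, 0.34 for Schwann cells, -0.12 for cardiac muscle, -0.01 for erythroid cells, 0.00 for leukocytes and -0.48 for colon epithelium. Summed adipocyte CPM was 46.6 in control 6 and 51.5 in cryoablation 8, the lowest of their groups, and 288 in cryoablation 3, the highest of all, although the 3 tumors all held muscle RNA. Adipocyte markers spanned 46.6 to 197 CPM in the control group and 51.5 to 288 CPM in the cryoablation group. The cardiac myosin Myh6 had 0 counts in all tumors, while Tnnt2, cardiac troponin T, had 2843 to 10515. Both the adipocyte and the erythroid list held genes past the threshold, all higher after cryoablation and none at an edgeR adjusted p under 0.05. They were 2 of 8 tested adipocyte genes, Cfd (log2 fold change 1.61, SE 0.67) and Retn (1.57, SE 0.72). Of 4 tested erythroid genes they were 3 globin genes, Hba-a1 (1.75, SE 0.56), Hbb-bs (1.54, SE 0.55) and Hbb-bt (1.45, SE 0.49). In two-sided exact permutation tests p was 0.236 for Cfd, 0.241 for Retn, 0.0125 for Hba-a1, 0.0142 for Hbb-bs and 0.00613 for Hbb-bt. The share of genes higher after cryoablation among all tested was 0.354%.

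**Figure D4:**
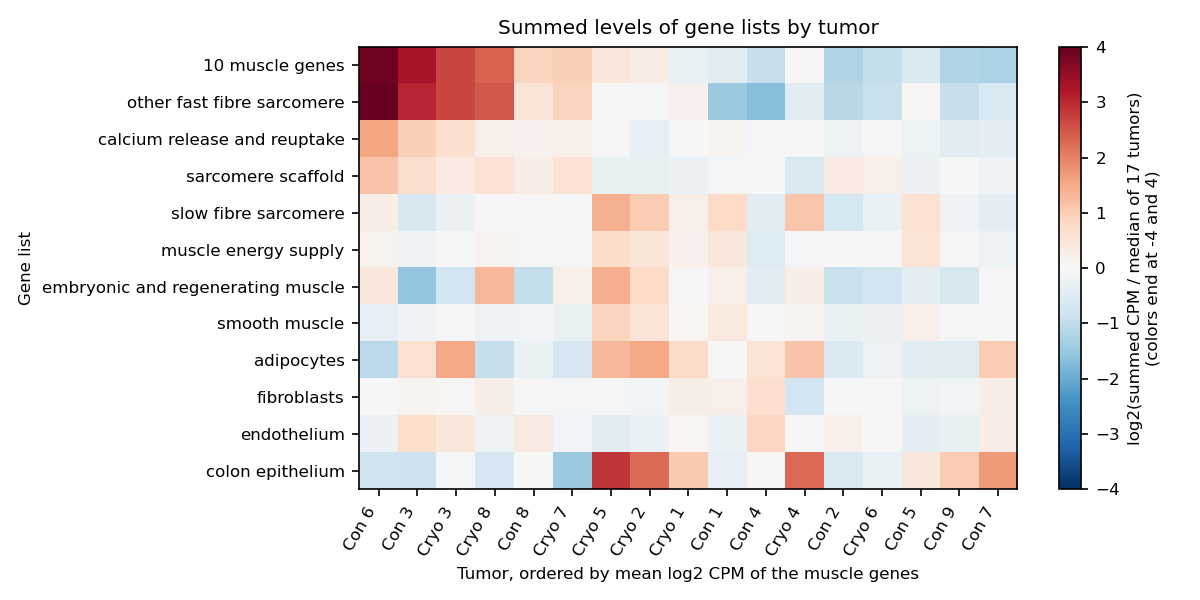
Summed CPM of the 10 muscle genes and 11 other gene lists as log2 of the ratio to the median of the 17 tumors, with tumors ordered from the highest to the lowest muscle score. The other fast fibre list (rho 0.79) and the calcium list (rho 0.85) follow the order from left to right, and the adipocyte list (rho -0.05) and the slow fibre list (rho 0.12) do not.

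Among the colon epithelium markers, Krt8 was low in several of the tumors rich in muscle RNA. Cdh1 kept 256 to 324 counts in control 3, 6 and 8 and in cryoablation 8. Krt8 had 4 counts in control 3, 0 in control 6, 0 in cryoablation 7 and 2 in cryoablation 8, but 58 in control 8 and 75 in cryoablation 3, and it was also 0 in control 4, which held 5 counts of Acta1. Cdh1 had 301 counts in control 3, the median of the control group, 256 in control 6, 324 in control 8 and 272 in cryoablation 8. In cryoablation 7 the whole list summed to 172 counts, so Cdh1 was lower there than in those tumors. The rho with the score was -0.13 for Cdh1, -0.41 for Krt8, -0.50 for Krt18, -0.55 for Krt19, -0.55 for Epcam and 0.02 for Vil1. Of 7 colon epithelium markers 0 of 5 tested were past the threshold, with a median log2 fold change of 1.65. Whether a lower share of tumor cells in a piece went with its muscle RNA was not tested.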

How the data were processed

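Bulk RNA sequencing of 9 control and 8 cryoablation distant tumors was analysed, with groups from the labels; all columns had a sample. The authors deposited counts of reads per gene, which are not normalized, and FPKM, checked to be count over gene length and total count (largest relative difference 3.89e-14). Per the labels, RNA was extracted with a column kit and mRNA libraries were built. The submitters' processing notes name GRCm38 and mm10; the aligner, the counting program and the strandedness are not given in the sources used here. Positions in the deposited table equal those of GENCODE M21 for 499 of 21827 shared genes, so gene positions were used only for overlaps and promoter coordinates are those of RefSeq.

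The muscle genes and all lists were chosen with earlier results of these data known. Lists came from general knowledge of marker genes. Genes named are the 10 muscle genes, the 10 others with the highest rho to the muscle score (mean of at least 10 counts), from each list at most 4 genes by mean count that are described and any past the threshold; Myh7, Myl3, Mb, Myh6, Epcam, Vil1, Cdx2, Ube2c and Tagln were named after their values were seen, and some genes the rule allows were given by list only. Counts were tested with edgeR 4.0.16 in R 4.3.3 (TMM, filterByExpr by group, quasi-likelihood F test, group as the only term), with Benjamini-Hochberg adjustment over 13005 genes. Standard errors were derived from the F statistic as the fold change (log2) over its square root. The score and the permutation tests used log2 CPM with a prior count of 2. The depth of each tumor, 13524899 to 17898672 counts, limits genes of few reads. Shared transcript windows were counted in GENCODE M21 transcripts on both strands. Alternatives were DESeq2 1.42.0, limma 3.58.1 voom with quality weights, RLE and upper-quartile normalization, no filter, a filter at a mean of 10 counts, replicate number as a block, a prior count of 0.5, no TMM, 100 myosin counts and leaving out each tumor. Taking the 4 genes under the filter from the fit without it, leaving out each tumor in that fit, and a score of 4 genes (Acta1, Ckm, Myh4 and Pvalb), were added after the data were seen. The tests were tested on simulated data. The summary of the list of myogenic regulators is not reported here.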

Additional observations from a re-analysis of the deposited data

How the results depend on the processing

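Of the muscle genes tested, 4 to 6 with a filter and 9 with no filter or a mean of at least 10 counts, none passed the threshold under another tool, scaling, filter or block or with 1 tumor left out of the filtered fit. In those settings 0 genes had an adjusted p under 0.05 with edgeR, DESeq2 or limma voom. With no filter and 1 tumor left out, added after the data were seen, Ckm (-3.24) and Myh4 (-3.44) passed it without cryoablation 3. The number of all genes past the threshold was 64, against 432 with no filter on low counts, and it ranged from 34 (without cryoablation 5) to 165 (without cryoablation 3) when 1 tumor was left out; it also moved by over 1.5 times without control 1 (122), control 5 (120), cryoablation 2 (39), cryoablation 6 (120) and cryoablation 7 (106). Directions of the muscle genes were not stable. With limma voom and quality weights the log2 fold change was 1.12 for Acta1, 1.27 for Myh1 and 0.80 for Tnnt3, which reversed their signs, and the cause was not tested. The labels do not say whether tumors with the same replicate number belong together. Correlations of same-numbered deviations ran from -0.51 to 0.64 over 8 numbers, and 2 of 8 tumors correlated best with their own number. These values cannot settle it. With the replicate block, 33 genes passed the threshold, and the log2 fold change was 0.48 for Acta1, 0.19 for Myh1 and 0.51 for Tnnt3. Leaving out 1 tumor gave -0.88 to 0.18 for Myh1, -0.14 to 0.57 for Mylpf, -0.20 to 0.51 for Tnnt3, and 0.02 to 0.40 for Tnni2 over 17 fits, and -1.11 to -0.26 for Acta1 over 14, since Acta1 did not pass the filter without control 3, 6 or 8; the sign turned in 2 of 17 fits for Myh1 (without control 3, 0.13, and control 6, 0.18), 8 of 17 for Mylpf and 5 of 17 for Tnnt3. With no filter the 17 fits gave -1.10 to 0.40 for Acta1 (positive without control 3, 0.12, and control 6), -3.24 to -0.90 for Ckm, -3.44 to -0.41 for Myh4, -2.52 to -0.58 for Pvalb, -0.47 to 1.23 for Actn3, -0.88 to 0.19 for Myh1, -0.15 to 0.57 for Mylpf, -0.21 to 0.51 for Tnnt3 and 0.01 to 0.39 for Tnni2. The score difference was -0.01 with a prior count of 0.5, -0.03 without TMM and -0.41 over Acta1, Ckm, Myh4 and Pvalb. The difference in read share, -0.00132%, ranged from -0.00202% to 0.000320%. With at least 100 myosin counts 4 tumors were kept in place of 6. Depth limits Ckm, Myh4 and Pvalb, which were at 0 to 2 counts in 11 tumors.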

Other observations

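Tagln, transgelin, an abundant marker of smooth muscle, had 0 to 3 counts in all 17 tumors, while Acta2, smooth muscle actin, had 338 to 1186. In the deposited positions its 6440 bases overlap the opposite-strand gene Pcsk7 by 108 bases. Tagln was named after its values were seen.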
